A study of Danio rerio with 6 samples.

Results

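The Hox genes of the zebrafish were followed in embryos that lack bcas2, whose protein belongs to the Prp19 complex and takes part in splicing. Members were all rows of the deposited tables whose symbol is a Hox cluster letter, a paralog number and a cluster copy letter, with at least 15 reads summed over the libraries. The rule gave 48 Hox genes of 32520 genes in all, and all 48 entered the test of 22347 genes. RNA of embryos was sequenced at 3 days post fertilization in 3 pools of bcas2-KO embryos and 3 pools of WT embryos, each pool made of 10 genotyped embryos. The labels give neither the kind of bcas2 allele nor the strain or clutch of the embryos, so p-values measure the spread between these pools. The study compared gene levels and splicing between the genotypes, and splicing was not analysed here.

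Hox genes code for homeodomain transcription factors that give cells their place along the body from head to tail. They lie in clusters, and the number of a gene (its paralog group) follows its place in the cluster: low numbers act in the hindbrain and anterior trunk, middle numbers in the trunk, and high numbers in the tail and the distal fin. Zebrafish carry extra clusters from a genome duplication in fishes, so one paralog can have an a copy and a b copy. Hox proteins bind DNA together with the TALE homeodomain proteins Pbx, Meis and Pknox. Retinoic acid, Cdx proteins and segment genes of the hindbrain switch Hox genes on, and Polycomb and trithorax complexes keep them off or on.

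The 48 members fell into 7 clusters, with 11 genes each in hoxba and hoxca, 7 in hoxda, 6 in hoxaa, 5 in hoxab and 4 each in hoxbb and hoxcb. Of these genes, 13 belong to paralog groups 1 to 4, 12 to groups 5 to 8 and 23 to groups 9 to 13. The row named hoxa4a has the symbol HOXA3 in a table of Ensembl names, and no row of the FPKM table is named hoxa3a, so its paralog number is uncertain. The counts were made on GRCz11. In RefSeq's gene table of another assembly, GRCz12tu, the spans of 17 members overlap that of another Hox gene. There hoxb3a overlaps hoxb4a, hoxb5a and hoxb6a, and hoxb1b overlaps hoxb5b and hoxb6b. Likewise, hoxc3a overlaps hoxc4a, hoxc5a, hoxc6a, hoxc8a and hoxc9a, hoxd3a overlaps hoxd4a, and hoxa3a overlaps hoxa4a and hoxa5a. The library kit named in the labels keeps no strand, and the handling of reads from overlapping genes was not stated, so the values of these genes are uncertain.

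Gene counts summed to between 32822716 and 40462653 in the bcas2-KO pools and between 35560010 and 49526995 in the WT pools, and Hox genes took 0.0849% to 0.0951% of them in bcas2-KO and 0.0767% to 0.0886% in WT. The targeted gene bcas2 had 146, 125 and 146 counts in bcas2-KO and 1503, 1189 and 916 counts in WT. It was 7.65-fold lower in bcas2-KO (log2 fold change -2.94 with SE 0.135, adjusted p = 4.38e-06 by edgeR's quasi-likelihood test). Eye transcripts set one pool of each genotype apart. The lens and photoreceptor list summed to 429.8 CPM (counts per 1e6 of the scaled library total) in bcas2-KO pool 3 and 4.53 to 4.80 CPM in the other bcas2-KO pools, and to 645.1 CPM in WT pool 1 and 6.98 to 11.04 CPM in the other WT pools. Transcripts of elavl3, a neuronal gene, lay at 145 to 150 CPM in bcas2-KO and 134 to 171 CPM in WT. Why 4 pools held so few eye transcripts was not tested, and these values do not show whether every pool held complete heads. Hox results are also given, where they changed, for the 4 pools with few eye transcripts, called pools without eye transcripts below. In RNA of pooled embryos, fewer cells that express a gene and less RNA per cell cannot be told apart.

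Hox transcripts of every paralog group were present in both genotypes, and by FPKM hoxc12a and hoxb8a led in both. Levels are given in FPKM, which divides by gene length, so the order of genes depends on the annotated length. By CPM, which does not divide by length, hoxb3a stood highest, with means of 83.8 in bcas2-KO and 64.7 in WT. The means of hoxc12a were 26.8 and 25.2 CPM in the same order. Mean FPKM ranged from 1.603 (hoxc13b) to 71.4 (hoxc12a) in bcas2-KO and from 1.52 (hoxb1a) to 67.8 (hoxc12a) in WT. The tail gene hoxc12a had 71.1, 75.2 and 67.9 FPKM in the bcas2-KO pools and 64.5, 65.7 and 73.2 FPKM in the WT pools. The trunk gene hoxb8a had 71.7, 75.7 and 61.6 FPKM in the bcas2-KO pools and 65.5, 58.1 and 55.4 FPKM in the WT pools. For both genes the ranges of the genotypes overlapped, and within each genotype the ranges of the pair overlapped each other too. By the mean over all pools, hoxc8a came below them with 54.3 ± 2.19 FPKM in bcas2-KO and 52.7 ± 2.17 FPKM in WT, followed by hoxc6a with 44.8 ± 5.46 FPKM in bcas2-KO and 54.2 ± 5.60 FPKM in WT (SD, n = 3 pools each). The gene hoxb5a had 48.6 ± 5.98 FPKM in bcas2-KO, above hoxc6a there, and 44.1 ± 7.46 FPKM in WT, below hoxc6a. By the mean over all pools, the next genes were hoxc9a (42.95 ± 5.98 FPKM in bcas2-KO, 45.0 ± 3.31 FPKM in WT), hoxb9a (44.4 ± 6.68 and 39.9 ± 1.98 FPKM in the same order) and hoxb5b. The pools of hoxc9a and hoxb9a overlapped in bcas2-KO, and in WT every pool of hoxc9a was above every pool of hoxb9a.

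**Figure D1:**
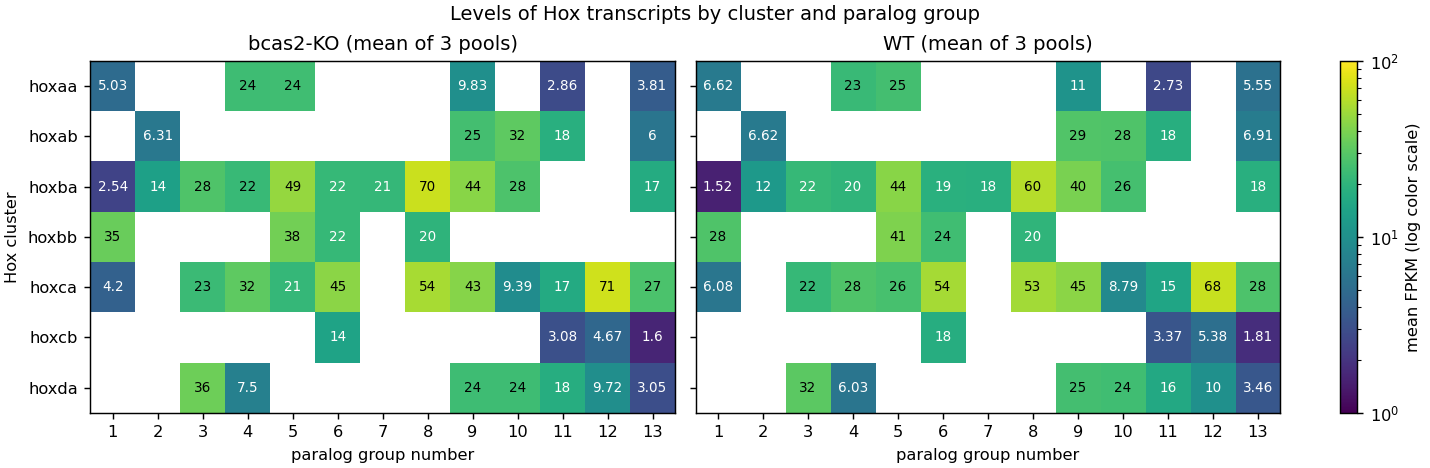
Mean FPKM over 3 pools of each Hox gene in bcas2-KO (left) and WT (right), with clusters as rows, paralog group numbers as columns and color on a log scale. White squares are positions with no member. The highest squares in both genotypes were hoxc12a (71.4 FPKM in bcas2-KO, 67.8 FPKM in WT) and hoxb8a (69.7 FPKM in bcas2-KO, 59.7 FPKM in WT).

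In each cluster the most abundant genes lay at different positions. In hoxaa these were hoxa5a, at 24.2 ± 3.67 FPKM in bcas2-KO and 25.3 ± 1.56 FPKM in WT, and hoxa4a, at 23.9 ± 0.819 and 22.6 ± 2.34 FPKM in the same order of genotypes. In hoxab they were hoxa10b (32.2 ± 1.46 FPKM in bcas2-KO, 28.4 ± 0.847 FPKM in WT) and hoxa9b (25.5 ± 1.97 FPKM in bcas2-KO, 28.9 ± 3.02 FPKM in WT). In hoxbb, hoxb5b had 37.8 ± 7.24 FPKM in bcas2-KO and 40.8 ± 7.45 FPKM in WT, and hoxb1b had 35.0 ± 1.14 FPKM in bcas2-KO and 28.2 ± 2.56 FPKM in WT. The hoxcb cluster was low apart from hoxc6b, at 14.4 ± 2.27 FPKM in bcas2-KO and 17.5 ± 2.66 FPKM in WT, and its next gene hoxc12b had 4.67 ± 0.830 FPKM in bcas2-KO and 5.38 ± 0.834 FPKM in WT. In hoxda, hoxd3a stood highest with 35.99 ± 2.02 FPKM in bcas2-KO and 31.6 ± 3.31 FPKM in WT, and hoxd9a, second by the WT mean, had 24.0 ± 1.24 FPKM in bcas2-KO and 25.4 ± 2.63 FPKM in WT. The posterior genes of hoxda stepped down with their number, from hoxd10a (24.0 FPKM in bcas2-KO, 24.2 FPKM in WT) through hoxd11a (17.6 and 16.1 FPKM) and hoxd12a (9.72 and 10.1 FPKM) to hoxd13a (3.05 and 3.46 FPKM). The hoxca cluster showed no such descent, since hoxc10a had 9.39 FPKM in bcas2-KO and 8.79 FPKM in WT, below hoxc12a.

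Of 11 paralogs with an a copy and a b copy, the a copy had the higher WT mean in 6 and the b copy in 5. The copies were far apart in hoxc13, where the a copy had 17.0 times the FPKM of the b copy in bcas2-KO and 15.4 times in WT, and in hoxc12 (15.3 times in bcas2-KO, 12.6 times in WT). The order was the other way in hoxb1, where the b copy had 13.8 times the FPKM of the a copy in bcas2-KO and 18.6 times in WT, and in hoxa11 (6.35 times in bcas2-KO, 6.55 times in WT). These ratios depend on the annotated lengths. In CPM the hoxc13 gap was smaller, with 14.4 for hoxc13a and 3.46 for hoxc13b in bcas2-KO. The hoxa11 gap was larger in CPM, with 1.42 for hoxa11a and 15.5 for hoxa11b in bcas2-KO. In hoxb5 the copies were close, with the a copy at 1.29 times the b copy in bcas2-KO and 1.08 times in WT. Which copy was higher was the same in both genotypes for every pair, although in hoxb6 the copies were nearly even in bcas2-KO (21.86 FPKM for the a copy, 21.96 FPKM for the b copy) and further apart in WT (18.7 and 24.5 FPKM).

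Most Hox genes showed no difference between the genotypes that passed the test. Of 48 members, 3 rose (hoxb1a, hoxb1b and hoxb3a), 2 fell (hoxc1a and hoxa13a) and 43 did not pass at an adjusted p under 0.05 (edgeR quasi-likelihood test, Benjamini-Hochberg adjustment over all genes tested). The members called were 10.4% of the list, against 19.6% of all 22347 genes tested, of which 10.6% rose and 9.01% fell. At an unadjusted p under 0.05 there were 11 members (22.9%), against 34.4% of all genes. In 10 members (20.8%) the values of the bcas2-KO pools and the WT pools did not overlap, against 39.4% of all genes. Of these, 7 were higher in bcas2-KO and 3 lower, beside 20.1% and 19.4% of all genes. The median log2 fold change was 0.026 over the members and -0.018 over all genes tested. The members ranged from -0.52 (hoxa13a) to 0.77 (hoxb1a), and the median size of the difference without its sign was 0.154, against 0.244 over all genes. Standard errors were 0.0758 to 0.288 on the log2 scale. The 95% interval lay within a 2-fold change in either direction for 47 members, all but hoxb1a, and within a 1.5-fold change for 38.

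All 5 calls were lost when a single bcas2-KO pool was left out. Without bcas2-KO pool 1, 2 or 3, edgeR called 0 of 48 members in each case, with 8, 7 and 8 members at an unadjusted p under 0.05. In the same fits 1974, 3067 and 2491 of all genes tested were called. Without WT pool 2, hoxb3a was the one member called, beside 7.65% of all genes tested. Without WT pool 1, hoxb3a, hoxb8a, hoxc1a and hoxa13a were called, and without WT pool 3, hoxb1b, hoxb3a and hoxc1a. In the 4 pools without eye transcripts, hoxc1a and hoxb8a were called, beside 16.3% of all genes tested. DESeq2 called 4 of the 5 genes and missed hoxb1a.

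**Figure D2:**
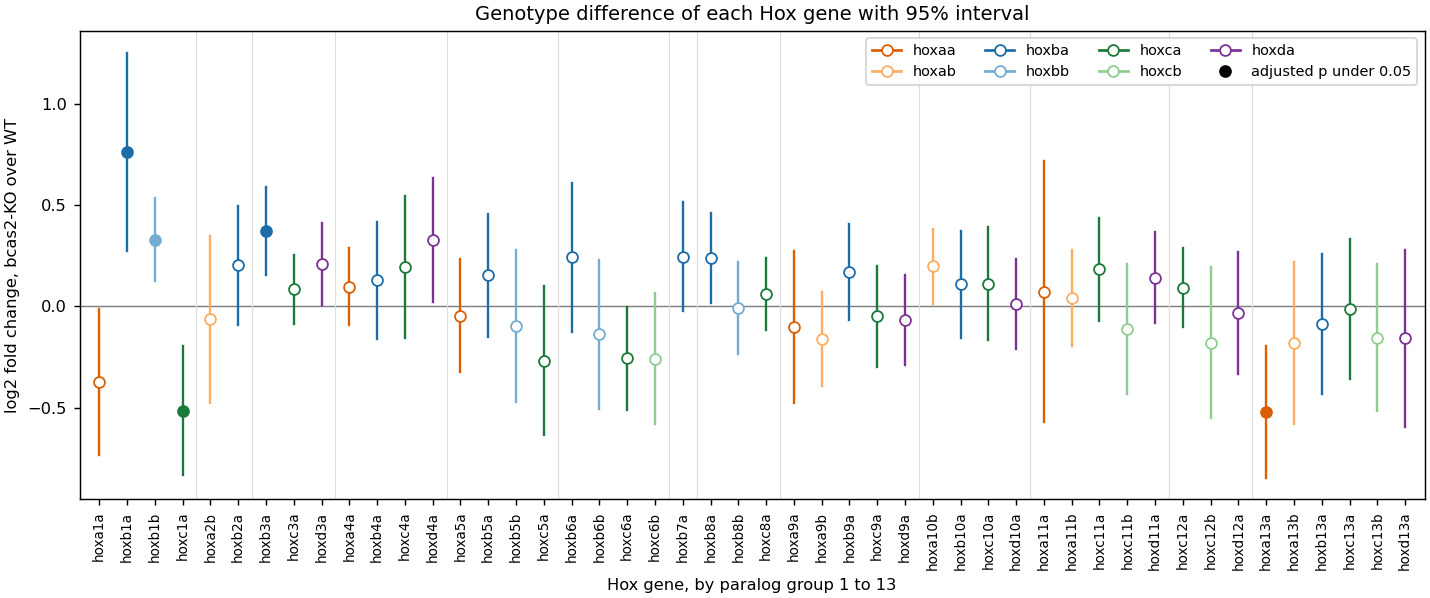
Log2 fold change of bcas2-KO over WT for each of the 48 Hox genes, ordered by paralog group and colored by cluster, with 95% intervals as lines. Filled points are the 5 genes with an adjusted p under 0.05, of which 4 stand in paralog groups 1 and 3 and 1 in paralog group 13.

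Of the 13 genes of paralog groups 1 to 4, 3 rose and 1 fell (30.8% called, against 19.6% of all genes tested). Without bcas2-KO pool 1, 2 or 3, 0 of them rose and 0 fell. Among those that rose, hoxb1b and hoxb3a overlap Hox genes of higher number in the RefSeq table, so their reads may not all come from anterior genes. In paralog group 1 both directions occurred. The gene hoxb1a, known for giving the fourth segment of the hindbrain its identity, had 1.55, 1.91 and 1.78 CPM in the bcas2-KO pools and 0.842, 1.17 and 1.08 CPM in the WT pools. Every bcas2-KO pool was above every WT pool, at 58 to 77 reads in bcas2-KO and 36 to 50 reads in WT. It was 1.70-fold higher in bcas2-KO, a log2 difference of 0.77 (SE 0.219; edgeR, adjusted p = 0.0372). The call was lost without any single pool (adjusted p 0.0655 to 0.0944), with DESeq2 (0.0508) and in the 4 pools without eye transcripts (0.153).

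The gene hoxb1b, which acts early in the segmentation of the hindbrain, had 25.1, 26.5 and 25.2 CPM in the bcas2-KO pools and 18.6, 20.7 and 21.9 CPM in the WT pools. The genotypes did not overlap, and the bcas2-KO pools lay closer together than the WT pools. The level was 1.26-fold higher in bcas2-KO, or 0.33 on the log2 scale (SE 0.0911; edgeR, adjusted p = 0.0330). Its call was lost without bcas2-KO pool 1, 2 or 3 (adjusted p = 0.0822, 0.0851 and 0.0704), WT pool 1 or 2 (0.0540 and 0.0932), with upper-quartile factors (0.0658) and in the 4 pools without eye transcripts (0.0960).

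The gene hoxc1a, of the same paralog group in another cluster, had 17.2, 16.4 and 14.6 CPM in the bcas2-KO pools and 19.2, 28.2 and 21.5 CPM in the WT pools. WT pool 2 stood above the others, and the lowest WT pool was above the highest bcas2-KO pool. Expression was 1.43-fold lower in bcas2-KO, with a log2 difference of -0.52 (SE 0.142; edgeR, adjusted p = 0.0334). It was -0.34 without WT pool 2 (adjusted p = 0.110), and the call was also lost without bcas2-KO pool 1, 2 or 3 (0.0817, 0.0816 and 0.111) and with library totals in place of scaling factors (0.0537). The remaining member of the group, hoxa1a, had 3.63, 2.92 and 3.35 CPM in the bcas2-KO pools and 3.78, 4.20 and 4.91 CPM in the WT pools. All its bcas2-KO values were lower, but it did not pass (log2 fold change -0.37, SE 0.161, adjusted p = 0.131, edgeR).

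In paralog group 3, which acts in the posterior hindbrain, hoxb3a had 81.4, 82.5 and 87.4 CPM in the bcas2-KO pools and 67.1, 71.3 and 55.6 CPM in the WT pools. The genotypes did not overlap, and WT pool 3 was the lowest. The log2 difference was 0.37 (SE 0.0975; edgeR, adjusted p = 0.0267). Its call was lost without bcas2-KO pool 1, 2 or 3 (adjusted p = 0.0714, 0.0592 and 0.0892), with upper-quartile factors (0.0505) and in the 4 pools without eye transcripts (0.0799). The genes that overlap it in the RefSeq table had log2 fold changes of 0.13 (hoxb4a), 0.15 (hoxb5a) and 0.24 (hoxb6a), and none of them passed. The gene hoxd3a had 49.4 to 55.4 CPM in bcas2-KO and 40.1 to 47.5 CPM in WT, with no overlap and a log2 fold change of 0.21 that did not pass (adjusted p = 0.137). The gene hoxc3a had 43.3 to 44.3 CPM in bcas2-KO and 38.8 to 43.7 CPM in WT.

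At the posterior end, hoxa13a, a gene of the distal fin and the hind end of the body, had 2.81, 2.87 and 3.02 CPM in the bcas2-KO pools and 3.76, 4.31 and 4.43 CPM in the WT pools. Every bcas2-KO pool was below every WT pool. It was 1.44-fold lower in bcas2-KO, or -0.52 on the log2 scale (SE 0.146; edgeR, adjusted p = 0.0343). The call was lost without bcas2-KO pool 1, 2 or 3 (adjusted p = 0.114, 0.0801 and 0.0736) or WT pool 2 or 3 (0.120 and 0.0947), in the 4 pools without eye transcripts (0.0594), with library totals (0.0509) and with no filter on low counts (0.0507). Its copy hoxa13b had 5.06, 4.31 and 3.29 CPM in the bcas2-KO pools and 4.80, 4.22 and 5.42 CPM in the WT pools, which overlapped (log2 fold change -0.18, adjusted p = 0.511). All 6 genes of paralog group 13 had a log2 fold change below 0, with hoxc13a at -0.01 and the other four not called between -0.09 (hoxb13a) and -0.18. With library totals, with no filter and in the 4 pools without eye transcripts, 5 of the 6 were below 0, and with a pool left out 4 to 6 were.

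**Figure D3:**
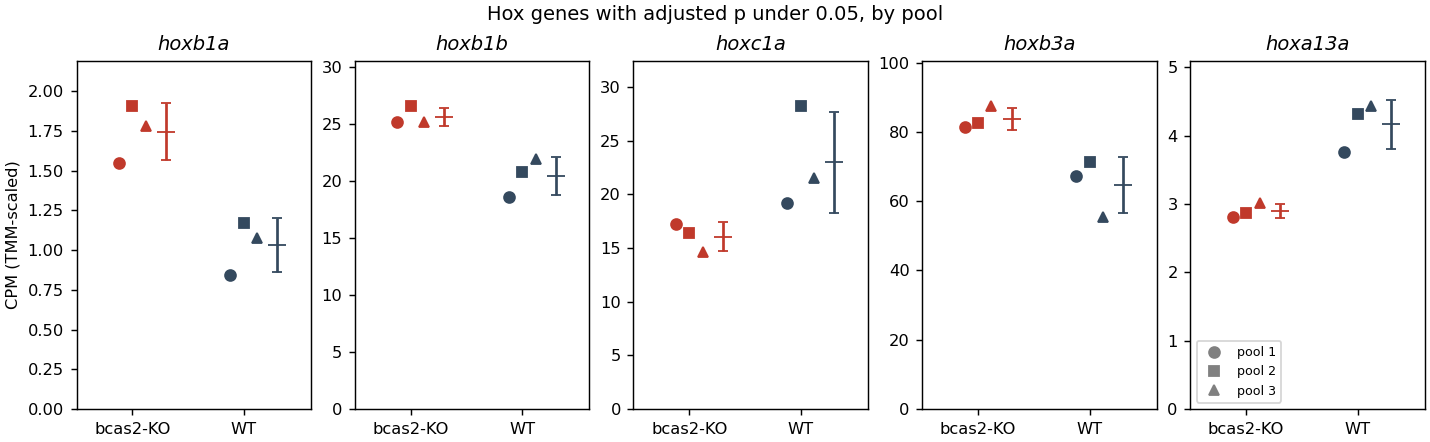
CPM on the scaled library total of the 5 Hox genes with an adjusted p under 0.05, in bcas2-KO (left) and WT (right) pools, each axis starting at 0. Symbols are pools 1, 2 and 3, and bars are the mean and SD of 3 pools. In each gene the pools of the genotypes did not overlap.

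By place along the axis, the members of paralog groups 1 to 4 had a median log2 fold change of 0.196, those of groups 5 to 8 of -0.028 and those of groups 9 to 13 of -0.032, beside -0.018 over all genes tested. In groups 1 to 4, 3 of 13 rose, 1 fell and 9 did not pass (30.8% called, against 19.6% of all genes tested). In this stretch 10 of 13 had a log2 fold change above 0 (76.9%, against 47.8% of all genes tested). Several of these genes overlap another Hox gene in the RefSeq table, so their directions may not be separate readings. Without bcas2-KO pool 1, 2 or 3, 0 of the 13 rose and 0 fell. With upper-quartile factors 1 rose and 1 fell, and in the 4 pools without eye transcripts 0 rose and 1 fell. In groups 5 to 8, edgeR and DESeq2 each called 0 of 12, and 5 of 12 were above 0. In groups 9 to 13, 0 of 23 rose, 1 fell and 22 did not pass, and 10 of 23 were above 0. When a pool was left out, the median of groups 1 to 4 ranged from 0.087 (without WT pool 3) to 0.248 (without WT pool 2). In the 4 pools without eye transcripts the medians of the 3 stretches were 0.224, -0.009 and 0.023 from anterior to posterior. Whether the stretches differ from each other was not tested.

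By cluster, 10 of 11 hoxba genes had a log2 fold change above 0, with a median of 0.203, while all 4 hoxcb genes were below 0, with a median of -0.168, beside 47.8% of all genes tested above 0. Without WT pool 3 these medians were 0.121 in hoxba and -0.097 in hoxcb. Upper-quartile factors, library totals and the 4 pools without eye transcripts gave 10 of 11 and 0 of 4 above 0 as well. In the hoxba cluster, 2 genes rose (hoxb1a and hoxb3a), 0 fell and 9 did not pass. The share called was 18.2%, close to the 19.6% of all genes tested. In hoxcb edgeR and DESeq2 each called 0 of 4, with 0 at an unadjusted edgeR p below 0.05. The other medians were -0.074 in hoxaa, -0.065 in hoxab, -0.053 in hoxbb, 0.062 in hoxca and 0.012 in hoxda.

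Among middle genes, hoxb8a had 59.2, 62.5 and 51.2 CPM in the bcas2-KO pools and 54.2, 47.2 and 45.1 CPM in the WT pools. The highest WT pool, one with eye transcripts, lay above the lowest bcas2-KO pool, the other with eye transcripts. The log2 difference was 0.24 (SE 0.100; edgeR, adjusted p = 0.124), and it passed without WT pool 1 (0.33, adjusted p = 0.0459) and in the 4 pools without eye transcripts (0.41, adjusted p = 0.0235). The part of eye transcripts in this difference was not tested. The trunk gene hoxc6a had 14.1 to 17.5 CPM in bcas2-KO and 17.2 to 20.5 CPM in WT (log2 fold change -0.26, adjusted p = 0.142), and its copy hoxc6b had the same log2 fold change of -0.26 (adjusted p = 0.237). The gene hoxc8a, at 27.9 to 30.2 CPM in bcas2-KO and 27.2 to 28.9 CPM in WT, had a 95% interval of -0.12 to 0.24. Among posterior genes, hoxa10b had 23.01 to 24.96 CPM in bcas2-KO and 20.7 to 21.7 CPM in WT without overlap (0.20, adjusted p = 0.122), and hoxc12a had 25.6 to 28.2 CPM in bcas2-KO and 24.2 to 27.1 CPM in WT (0.09, adjusted p = 0.494).

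Between pools of one genotype, the deviations of Hox genes differed by stretch of the axis. In bcas2-KO pool 2, 3 of 23 genes of paralog groups 9 to 13 lay below the mean of the genotype, and their median deviation was 0.134 on the log2 CPM scale. In bcas2-KO pool 3, 19 of 23 lay below it, with a median of -0.112. In bcas2-KO pool 1 the genes of groups 5 to 8 stood higher, by a median of 0.157. In WT pool 2, 2 of 13 genes of groups 1 to 4 and 1 of 12 genes of groups 5 to 8 lay below the mean of the genotype, with medians of 0.138 and 0.125. In WT pool 3 both stretches stood lower, with medians of -0.073 and -0.097, while the median of groups 9 to 13 was 0.042. Across the 48 genes, Pearson's r of the deviation with the paralog number was -0.147, 0.476 and -0.421 in bcas2-KO pools 1, 2 and 3 and -0.160, -0.419 and 0.411 in WT pools 1, 2 and 3. This is a description across genes of the same library, which are not independent. The deviations of a gene cancel out over the 3 pools of a genotype, so opposite values in different pools are partly forced. The spread differed between genes. A wide one was that of hoxb5b, with 33.3, 22.6 and 27.9 CPM in the bcas2-KO pools and 29.2, 35.5 and 24.9 CPM in the WT pools. A narrow one was that of hoxc8a, with 27.9, 29.96 and 30.2 CPM in the bcas2-KO pools and 27.2, 28.9 and 28.4 CPM in the WT pools. Their log2 fold changes had an SE of 0.165 and 0.0792, beside a median SE of 0.130 over the members.

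**Figure D4:**
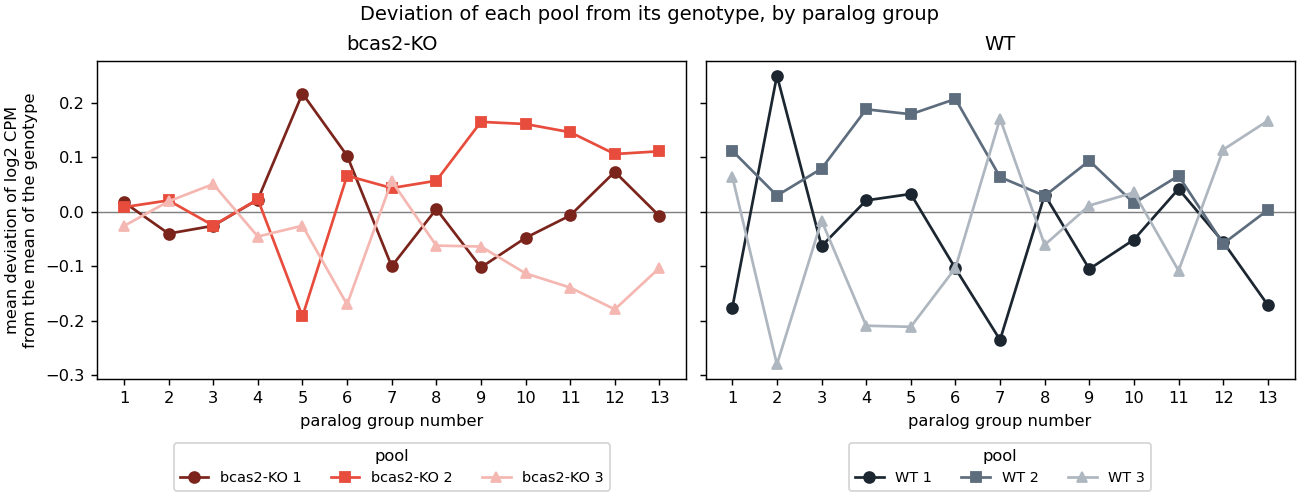
Mean deviation of log2 CPM from the mean of the genotype, by paralog group number, for the 3 bcas2-KO pools (left) and the 3 WT pools (right). Paralog groups 9 to 13 lie above the mean in bcas2-KO pool 2 and below it in bcas2-KO pool 3, and groups 4 to 6 lie above the mean in WT pool 2 and below it in WT pool 3.

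Genes that act with or upstream of Hox genes were read from the same test. Among the TALE cofactors, 2 of 14 rows (13 symbols, meis2a on 2 rows) rose, 1 fell and 11 did not pass (21.4% called, against 19.6% of all genes tested, median -0.08). The cofactor pbx1b had 4.26, 4.35 and 4.95 CPM in the bcas2-KO pools and 7.497, 8.13 and 7.90 CPM in the WT pools, well apart (1.73-fold lower in bcas2-KO; edgeR, adjusted p = 0.00244). The related genes pknox1.1 (0.45, adjusted p = 0.0154) and pknox1.2 (0.43, adjusted p = 0.0130) rose. Neither was called without bcas2-KO pool 1 or WT pool 2, nor was pknox1.1 without bcas2-KO pool 3 (adjusted p up to 0.0753 for pknox1.1 and 0.0584 for pknox1.2).

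Of the paraHox genes, sisters of the Hox clusters, edgeR and DESeq2 each called 0 of 6, with 0 at an unadjusted edgeR p below 0.05. Of all genes tested, 19.6% were called and 34.4% had an unadjusted p under 0.05 by edgeR. With 6 genes, of which 3 entered the test under a stricter filter on low counts, these counts say little. On the log2 scale cdx1b was at 0.19 (adjusted p = 0.253) and cdx1a at -0.31 (adjusted p = 0.268).

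In the retinoic acid list, 6 of 23 fell, 1 rose and 16 did not pass (30.4% called, against 19.6% of all genes tested, median -0.11). The synthesis gene aldh1a3 had 2.25, 3.07 and 2.62 CPM in the bcas2-KO pools and 7.61, 4.99 and 4.19 CPM in the WT pools, with the highest value in WT pool 1, which held eye transcripts (log2 fold change -1.09, adjusted p = 0.0122). In the 4 pools without eye transcripts its adjusted p was 0.0528. The breakdown enzyme gene cyp26b1 had 19.9, 18.9 and 21.8 CPM in the bcas2-KO pools and 23.5, 30.8 and 36.5 CPM in the WT pools (-0.58, adjusted p = 0.0267). The main synthesis gene aldh1a2 (-0.30, adjusted p = 0.0452) and the carrier gene crabp1a (-0.86, adjusted p = 0.0422) fell too, while the receptor gene rxrba rose (0.26, adjusted p = 0.0326). Fewer of the list passed with any single pool left out. Without bcas2-KO pool 1, edgeR called 0 of 23. Without bcas2-KO pool 2, 1 fell and 1 rose, and without WT pool 2, 1 fell and 0 rose. The share of all genes called was lower in these fits too, at 8.67%, 13.5% and 7.65% in the same order. The drop in calls was thus not confined to this list. Without WT pool 1, 5 fell and 1 rose. Without bcas2-KO pool 3 or WT pool 3, and with library totals, 2 fell, and in the 4 pools without eye transcripts 3 fell.

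**Figure D5:**
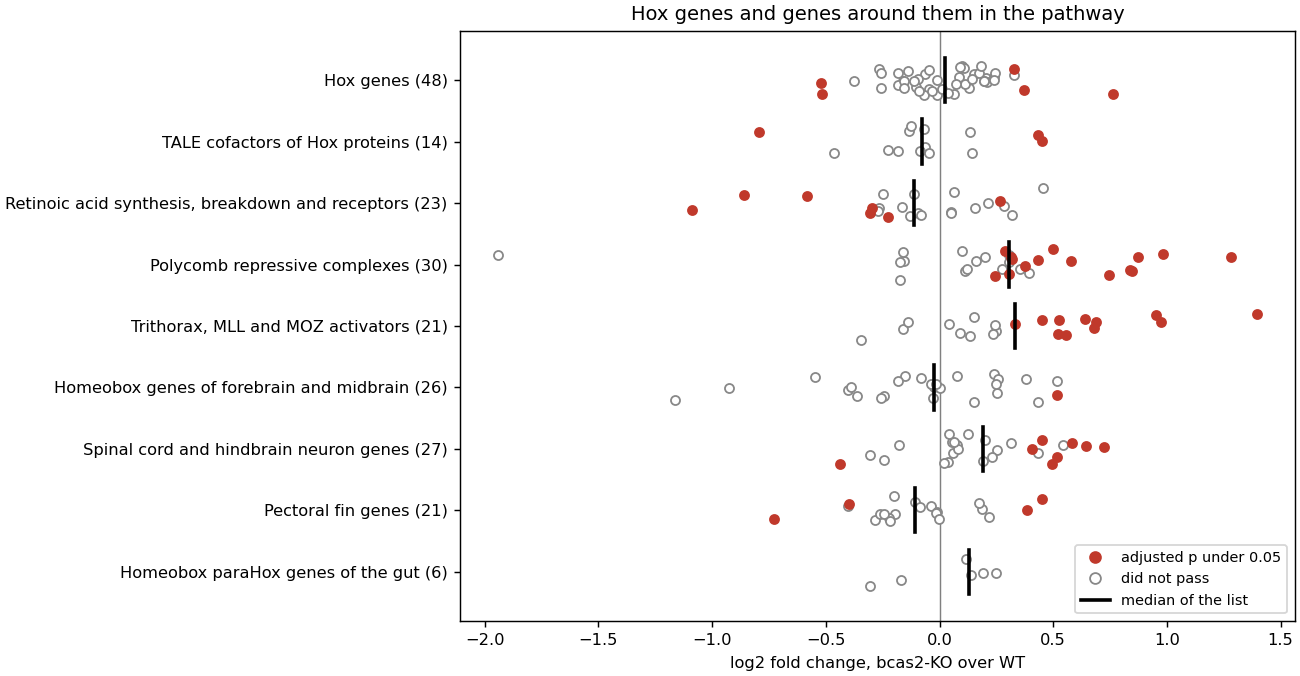
Log2 fold change of bcas2-KO over WT for the Hox genes and most of the other lists, 1 point per tested gene, with the number of genes in parentheses. Filled points passed an adjusted p of 0.05, and the black bars are medians, which lie at 0.026 for Hox genes, 0.307 for Polycomb genes and 0.333 for trithorax, MLL and MOZ genes.

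Genes for the chromatin complexes that hold Hox genes off or on were called higher in part. In the Polycomb list, 15 of 30 rose, 0 fell and 15 did not pass (median 0.31), against 10.6% of all genes tested that rose and 9.01% that fell, while DESeq2 called 15 higher and 1 lower. The gene eed, for a core subunit of the complex that methylates histone H3 lysine 27, had 47.4, 46.4 and 49.7 CPM in the bcas2-KO pools and 26.6, 22.01 and 23.8 CPM in the WT pools (1.98-fold higher, adjusted p = 0.000189, edgeR). The gene cbx8b, for a reader of that mark, rose 2.43-fold. The complex partners mtf2 (0.87, adjusted p = 0.00104) and suz12a (0.58, adjusted p = 0.00279) rose as well, and ezh2, for the methyltransferase, had a log2 fold change of 0.75 (adjusted p = 0.00583). The member cbx7a did not pass, at 4.03 to 8.12 CPM in bcas2-KO and 9.18 to 38.1 CPM in WT (adjusted p = 0.120). With a pool left out, 7 (without WT pool 2 or bcas2-KO pool 3) to 14 (without WT pool 1) of the list rose. The number was 9 without bcas2-KO pool 1, 8 without bcas2-KO pool 2 and 9 with upper-quartile factors.

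In the list of trithorax, MLL and MOZ activators, 11 of 21 rose, 0 fell and 10 did not pass (52.4% called, against 19.6% of all genes tested, median 0.33). The demethylase gene kdm6al had 143.2, 124.3 and 162.8 CPM in the bcas2-KO pools and 54.4, 49.1 and 60.2 CPM in the WT pools, 2.63-fold higher in bcas2-KO (adjusted p = 0.000116, edgeR). The MLL family gene kmt2ba rose 1.96-fold (adjusted p = 0.000126), with kmt2a at 0.95 (adjusted p = 0.000273) and kdm6a at 0.69 (adjusted p = 0.00114) on the log2 scale. With a pool left out, 9 to 12 of the list rose, and with upper-quartile factors 10 rose.

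Lists of genes for tissues where Hox genes act moved in part. The RNA came from pooled embryos, so these values do not place a change in a tissue. In the list of spinal cord and hindbrain neuron genes, 7 of 27 tested rows rose, 1 fell and 19 did not pass (29.6% called, against 19.6% of all genes tested, median 0.19). The median was 0.065 without WT pool 3. The transcription factor genes sim1a (0.73, adjusted p = 0.00390), lhx1a (0.50, adjusted p = 0.00909), pax8 (0.41, adjusted p = 0.00929) and isl2a (0.64, adjusted p = 0.00931) rose. The acetylcholine transporter gene slc18a3a, chosen after its value was seen, fell (-0.44, adjusted p = 0.0135). Without WT pool 2, 5 of the list rose and 0 fell. In the list of pectoral fin genes, 2 of 21 rose (sall1a at 0.39 and sall4 at 0.45), 2 fell (msx1a at -0.73 and bmp2b at -0.40) and 17 did not pass (19.0% called). Of these, msx1a alone passed without each pool in turn, and in the 4 pools without eye transcripts 1 of the list rose and 3 fell. The fin fold gene and1 had 890 to 1150 CPM in bcas2-KO and 960 to 1470 CPM in WT (adjusted p = 0.278, and 0.0382 in the 4 pools without eye transcripts). In the list of forebrain and midbrain genes, most of them homeobox genes, 1 of 26 passed (3.85% called, against 19.6% of all genes tested). It was barhl2 at 0.52 (edgeR, adjusted p = 0.0239, and 0.102 in the 4 pools without eye transcripts). This list is not confined to tissue anterior to the Hox domains. It shares en1b with the list of spinal cord and hindbrain neuron genes and dlx5a with the pectoral fin list. Some genes of this list were highest in the pools with eye transcripts, 1 in each genotype. An example is otx2b, with 2.35, 1.81 and 5.17 CPM in the bcas2-KO pools and 4.33, 2.44 and 0.868 CPM in the WT pools. In the 4 pools without eye transcripts, 0 of 25 tested genes of this list rose and 0 fell, against 16.3% of all genes called in that fit. The part of eye transcripts in the low count of this list was not tested. In the lens and photoreceptor list edgeR called 0 of 14 and DESeq2 0 of 26, with 0 at an unadjusted edgeR p below 0.05. These counts say little, since 1 pool of each genotype was far above the others (the SE of crybb1 was 2.86 on the log2 scale). In the 4 pools without eye transcripts, 2 of 8 tested genes of the list fell and 0 rose, against 16.3% of all genes called in that fit. Those pools were set apart by low values of this same list, so no conclusion is drawn from this count. The smallest p of the list with all pools belonged to rpe65a (-1.13, adjusted p = 0.234) and bfsp2 (-1.02, adjusted p = 0.620).

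Genes beside the clusters were read from gene order in the RefSeq table. Of the 5 nearest other protein-coding genes on each side of each cluster, 67 rows were tested, 9 rose and 3 fell (17.9% called, median 0.07), against 19.6% of all genes tested. Beside hoxbb, msl1b (0.72), fbrs (0.59), ttll6 (0.77) and nbr1a (0.36) rose. The others that rose were cbx3a (0.35) and osbpl3a (0.49) beside hoxaa, cbx1a (0.38) beside hoxba, calcoco1a (0.36) beside hoxca and a row of znf740a (0.52) beside hoxcb. Those that fell were pde11a (-0.88) beside hoxda, prr15la (-0.63) beside hoxba and rarga (-0.23) beside hoxca. The microRNA genes of the mir10 and mir196 families inside the clusters had 46 reads in all over the 10 rows found, at most 6 in a pool, and 0 were tested.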

How the data were processed

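RNA was measured in 3 pools of bcas2-KO and 3 pools of WT zebrafish embryos. Per the labels, NEBNext Ultra libraries were sequenced as paired reads of 150 bases. The raw counts deposited by the authors are whole reads per Ensembl gene, and the FPKM values deposited by the authors are scaled to gene length and depth. The submitters' processing notes name DESeq2 1.22.1, StringTie 1.3.3b, featureCounts 1.6.0, STAR 2.6.1a, cutadapt 1.15 and the build GRCz11, without roles. Annotation release, filters and strand setting were not stated.

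Counts were filtered with filterByExpr (minimum count 10), scaled by TMM factors and compared with the two-sided quasi-likelihood test of edgeR 4.0.16 in R 4.3.3, with a robust fit and genotype alone in the model. Calls have a Benjamini-Hochberg adjusted p under 0.05 over all 22347 genes. CPM values use the TMM-scaled totals, and deviations between pools use log2(CPM + 0.5). FPKM values were used for levels between genes only, without a test. Intervals of 95% come from the moderated t distribution of the fit. A gene with no reads could lie as high as 3 counts (0.0587 to 0.0923 CPM by pool), for counting error alone. Simulated counts with known changes were used to test the script. Chi-square values between pools of a genotype were 12.7 to 34.4 per degree of freedom, so no pool was a copy of another.

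The Hox members, the 11 other lists and the libraries doubted were chosen with earlier results of these data known. Named with values are each called member, the 2 members with the highest FPKM of each cluster and, of each other list, up to 4 called genes by p or else the 2 with the smallest p, except in the list of caudal and segment regulators, which is not reported here. Other genes named were chosen after their values were seen. Alternatives were DESeq2 1.42.0, other scalings and filters, a replicate block, each pool left out, and the 4 pools without eye transcripts.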

Additional observations from a re-analysis of the deposited data

How the results depend on the processing

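The 48 Hox genes were recomputed under 14 alternatives, 672 values in all. Of these values 596 kept their direction and their side of the threshold, 33 lost a call, 2 gained one (hoxb8a) and 41 changed sign, in 16 genes, none of them called. No called Hox gene changed sign. The count of Hox genes that rose was 3. It was 2 with DESeq2 (hoxb1b and hoxb3a), 1 with upper-quartile factors (hoxb1a) and 0 to 2 with a pool left out. Without WT pool 1 the genes that rose were hoxb3a and hoxb8a. In the 4 pools without eye transcripts the count was 1, and that gene was hoxb8a, not a gene called with all pools. The count that fell was 2. It was 0 with library totals only, 1 with no filter on low counts, 1 in the 4 pools without eye transcripts, and 0 to 2 with a pool left out. All genes called ranged from 1730 (without WT pool 2) to 5171 (without WT pool 1) beside 4382, with 1974 without bcas2-KO pool 1 and 2491 without bcas2-KO pool 3. The median of groups 9 to 13 was -0.032 and ranged from -0.150 to 0.062 with a pool left out. Between pools of a genotype, the median log2 CPM of this stretch had an SD of 0.0872, which is a spread of levels and not of fold changes. With a pool left out, the median of groups 1 to 4 ranged from 0.087 to 0.248 and that of groups 5 to 8 from -0.096 to 0.053. The median of all members (0.026) was -0.035 with upper-quartile factors and -0.019 without bcas2-KO pool 2. Upper-quartile factors shifted the median of all genes from -0.018 to -0.079. The cause of these changes was not tested.

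Sign changes of Hox genes that were not called were as follows. With upper-quartile factors they were hoxa11b (-0.021) and hoxd10a (-0.049), with the stricter filter hoxd10a (-0.0061), and with DESeq2 hoxb8b (1.5e-05). With library totals they were hoxb8b (0.029), hoxc13a (0.031) and hoxd12a (0.0078), and with no filter hoxb8b (0.0029) and hoxc13a (0.0010). In the 4 pools without eye transcripts they were hoxa2b (0.17), hoxb8b (0.024), hoxc13a (0.023), hoxc9a (0.016) and hoxd12a (0.051). With a pool left out, the ranges that crossed 0 were hoxa11a -0.18 to 0.26, hoxa11b -0.030 to 0.12, hoxa2b -0.21 to 0.20, hoxa5a -0.17 to 0.037 and hoxa9a -0.23 to 0.076. The others were hoxb10a -0.012 to 0.20, hoxb13a -0.22 to 0.048, hoxb4a -0.0039 to 0.21, hoxb5b -0.24 to 0.045, hoxb6b -0.24 to 0.060 and hoxb8b -0.053 to 0.042. Last, hoxc10a spanned -0.021 to 0.19, hoxc13a -0.17 to 0.12, hoxc9a -0.15 to 0.043, hoxd10a -0.061 to 0.069 and hoxd12a -0.14 to 0.076.

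With the replicate number as a block, 3 Hox genes rose and 2 fell, as without it, and 4922 genes were called in all. The numbers share no stated origin, and pools with the same number deviated from their genotype with correlations of -0.13, 0.393 and -0.0137, so they were not taken as pairs. Not every pool correlated best with its own number. The 2 Hox genes with the fewest reads over all pools, hoxb1a (328) and hoxa11a (341), also had the largest standard errors on the log2 scale (0.219 and 0.288, against a median of 0.130 over the members).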
